A study of Homo sapiens with 8 samples.

Results

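The comparison described here set MDAH and SKOV3 cells carrying sh-SFPQ#3 against the same cells carrying sh-SFPQ#2, that is, 4 of the 8 arrays of the study, chosen by the shRNA number and the cell line in the sample labels. MDAH and SKOV3 are human epithelial ovarian cancer lines. Each line contributed 1 array of cells silenced with sh-SFPQ#2, 1 array of cells silenced with sh-SFPQ#3 and 2 control arrays of cells not silenced for SFPQ. The sample labels give both controls of a line as control shRNA and the supplementary methods as a parental and an sh-ctrl sample, so that they were used here as cells not silenced. The shRNAs of the study were lentiviral constructs, the labels name no platinum treatment of these cells, and the time between transduction and RNA extraction is not given in the sources used here. The controls took no part in the difference between the shRNAs and served for the spread and as a reference level.

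SFPQ is a nuclear protein that binds RNA and DNA. With its relatives NONO and PSPC1 it forms dimers that gather on the long non-coding RNA NEAT1 in nuclear bodies called paraspeckles, and it takes part in splicing, transcription and DNA repair. In neurons and muscle it is known to be needed for full expression of very long genes. Short hairpin RNAs are processed into small RNAs that lower the transcript they match, and 2 hairpins against the same gene share the intended target but not their sequence. The sequences of both hairpins are not given in the sources used here.

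All 8 arrays lay on 1 slide, and in each line sh-SFPQ#2 and sh-SFPQ#3 had the same slide column in both rows, so that slide position and shRNA cannot be told apart. The signal at the 75th percentile of the probes was 244 on the MDAH array of sh-SFPQ#3, 405 on that of sh-SFPQ#2 and between 387 and 496 on the other 6 arrays, and its part in the results was not tested. Levels are log2 signals from which the array's 75th percentile was subtracted, and a difference of 1 is 2-fold. They are averages over a culture, in which fewer cells expressing a gene and less RNA per cell cannot be told apart. Of 11 markers of ovarian carcinoma and epithelium, among them PAX8 and the keratins, 9 were well above background on all 4 MDAH arrays and 7 on all 4 SKOV3 arrays, MSLN was above it on none of the 8, and WT1 was measured in MDAH cells only. Of 11 markers of leukocytes, endothelium and fibroblasts, 4 and 6 were above background on all arrays of MDAH and SKOV3 cells, PDGFRA, LUM and CD3E on none, and the 4 that entered the test had 0 calls.

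SFPQ itself was lower with both shRNAs, and lower with sh-SFPQ#3 than with sh-SFPQ#2 in both lines, by a margin that did not pass the test. In MDAH cells its level was 3.64 and 3.91 on the control arrays, 2.45 with sh-SFPQ#2 and 2.10 with sh-SFPQ#3. In SKOV3 cells it was 4.84 and 4.66 on the control arrays, 3.01 with sh-SFPQ#2 and 2.48 with sh-SFPQ#3. Silenced and control arrays did not overlap in either line, and 39.9% and 31.3% of the control signal were left in MDAH cells with sh-SFPQ#2 and sh-SFPQ#3, against 29.9% and 20.7% in SKOV3 cells. The difference of sh-SFPQ#3 from sh-SFPQ#2 was -0.35 in MDAH and -0.53 in SKOV3 cells, on average -0.44 ± 0.15 (SE, 2 lines), with a 95% interval from -0.81 to -0.07 and an adjusted p of 0.163 in limma. A two-sided exact permutation test of the pair of differences gave p = 0.5, the smallest it can give with 2 lines. A difference at least as low as that of SFPQ in both lines was found for 839 of 13409 genes, or 6.26%, so that SFPQ did not stand out among the genes that were lower with sh-SFPQ#3.

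Between the shRNAs, 713 of 13409 genes differed in the average of the lines, at an adjusted p under 0.05 in limma with the cell line as a block. With sh-SFPQ#3, 496 genes were lower, 3.7% of those tested, and 217 were higher, 1.62%. All 713 lay on the same side of 0 in both lines, which the test favours, since disagreement between the lines enters its spread. Of all 13409 genes, 4200 were lower and 4150 higher in both lines. Among the calls, 394 of the lower and 183 of the higher genes were well above background on all 4 silenced arrays. The median difference of the lower genes was -1.08 in MDAH and -1.0 in SKOV3 cells, and that of the higher genes 0.99 and 0.88, while that of all genes was 0.02 and -0.02. Median centring of the arrays shifted the difference of all genes to a median of -0.15, and the split was then 909 lower and 153 higher, so that the share of lower genes was 85.6% in place of 69.6%. Fitted on the 4 silenced arrays alone, 161 genes passed. Without either MDAH control array 267 passed. A fit without 1 silenced array rests on 1 array against 1 of the other line, so that its count does not measure how well the calls hold. The labels do not say whether samples came from separate cultures, and the p-values measure only the spread between these arrays.

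A difference of at least 2-fold in the same direction in both lines, counted with no test, was found for 197 genes lower and 67 genes higher with sh-SFPQ#3, 1.47% and 0.5% of the genes tested. Of these 264 genes, 240 were among the 713 that passed the test. Only 11 genes differed by at least 2-fold in opposite directions. The difference between the 2 control arrays of each line gave 7 genes by the same rule. Genes could enter through the shRNA with which they were high, while the control arrays had no part in the filter. With all 4 silenced arrays above background, 168 genes were at least 2-fold apart in the same direction. Across genes, which are not independent replicates, the difference in MDAH cells correlated with that in SKOV3 cells with r = 0.481 (Spearman 0.397) over 13409 genes, against r = 0.127 (Spearman 0.147) for the control differences, the points of each line sharing their arrays.

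**Figure D1:**
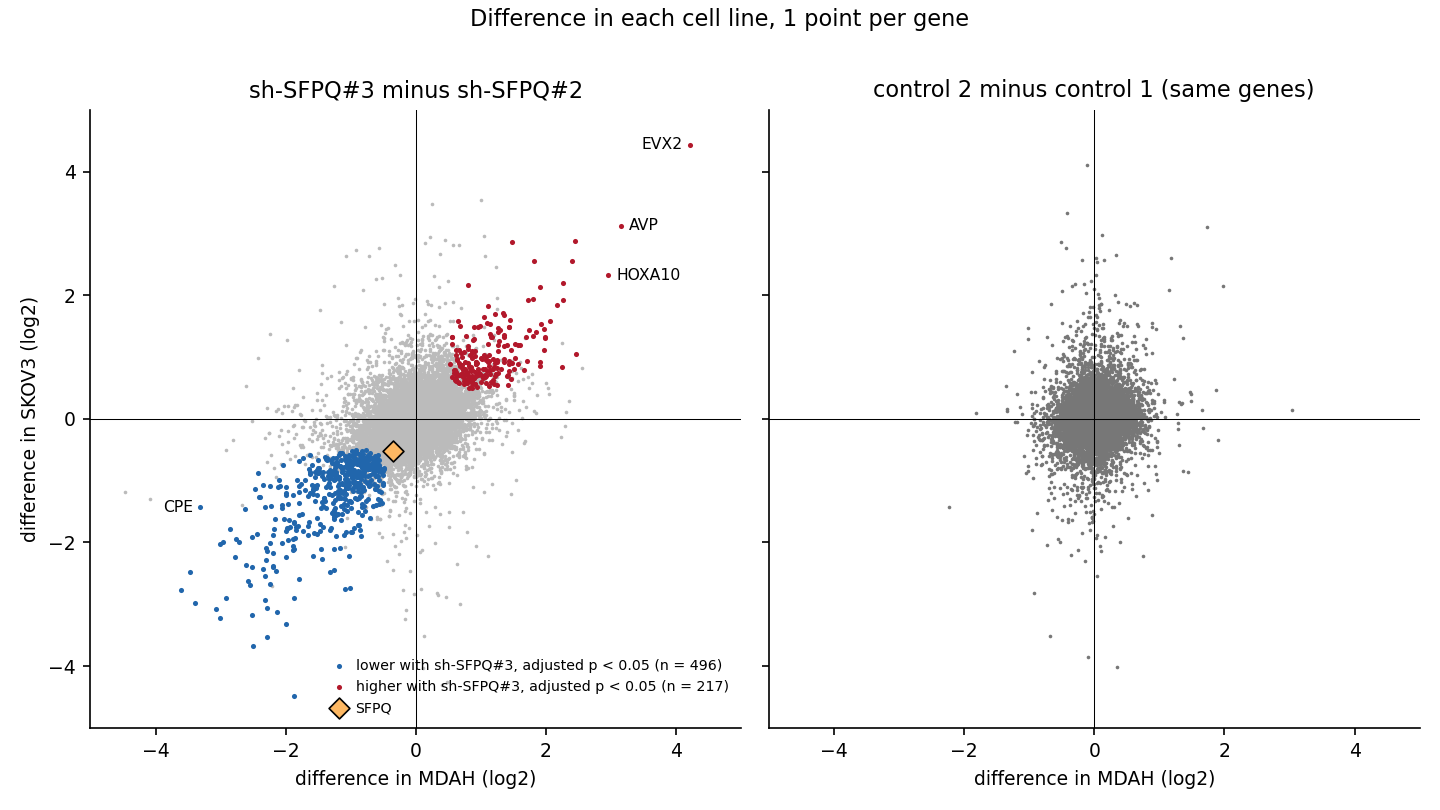
Difference between sh-SFPQ#3 and sh-SFPQ#2 (left) and between the 2 control arrays (right) in MDAH cells (x axis, log2) and SKOV3 cells (y axis, log2), 1 point per gene tested. The 496 genes lower and 217 genes higher with sh-SFPQ#3 are coloured and lie in the lower left and upper right, SFPQ (diamond) lies at -0.35 and -0.53 among genes that did not pass, and the control differences are narrower and less related between the lines (r = 0.127).

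The lowest genes with sh-SFPQ#3 had already been lower with sh-SFPQ#2. FTO, a demethylase of RNA, was at 2.79 and 2.89 on the MDAH control arrays, 0.74 with sh-SFPQ#2 and -1.41 with sh-SFPQ#3. Its levels in SKOV3 cells were 2.90 and 2.92, 1.0, and -1.46. The 2 lines thus ran through nearly the same levels, and the difference between the shRNAs was -2.31 ± 0.14 (SE of the fit, adjusted p = 0.00133). NTN1, which encodes the guidance cue netrin-1, had levels of 1.35 and 1.57, -0.27 and -2.82 in MDAH cells, and of 1.77 and 1.79, 0.61 and -2.09 in SKOV3 cells, in the same order of arrays. Its difference was -2.62 ± 0.14, or 6.14-fold, with an adjusted p of 0.00133. UBE2E2, a ubiquitin-conjugating enzyme, stood closer to the controls with sh-SFPQ#2, at -0.45 against 0.43 and 0.32 in MDAH and at 0.03 against 0.74 and 0.69 in SKOV3 cells, and fell to -2.65 and -2.35 with sh-SFPQ#3. That difference was -2.28 ± 0.13 (adjusted p = 0.00133).

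Among the 10 lowest genes that passed and were above background on all 4 silenced arrays, the others were IMMP2L, a peptidase of the inner mitochondrial membrane, LHPP, a phosphatase, KLHL29, MVB12B, a subunit of the ESCRT-I complex, CPE, a carboxypeptidase that trims prohormones, VAV2, a guanine nucleotide exchange factor, and LHFPL6. Their differences ranged from -2.62 for IMMP2L to -2.21 for LHFPL6. In MDAH cells the level of LHPP was 3.43 and 3.32 on the control arrays, -0.19 with sh-SFPQ#2 and -2.77 with sh-SFPQ#3, and in SKOV3 cells 2.86 and 2.06, -0.48 and -3.10. These values are those of the brightest probe of each gene, and further probes of 3 of the 10 differed from it. A second probe of LHPP gave an average of -0.66 in place of -2.60. A second probe of KLHL29 had the opposite direction, with 0.58 in MDAH and 0.10 in SKOV3 cells against -2.77 and -2.24. For MVB12B, with -2.96 and -1.99, one further probe gave 0.48 and 1.16 and another 0.01 and -1.55. CPE was the least even of the 10, with -3.32 in MDAH and -1.44 in SKOV3 cells (average -2.38 ± 0.44, adjusted p = 0.0305). All 10 were below both controls of their line with either shRNA. For 3 further genes the sh-SFPQ#3 arrays of both lines were not well above background and the difference is a bound, set against the lowest signal above background on those arrays. SHH, the ligand of the hedgehog pathway, was at least 6.55-fold lower with sh-SFPQ#3, the transcription factor RFX8 at least 4.86-fold, and the receptor ERBB4 at least 3.89-fold. Each bound is for the average of the lines and need not hold in 1 line. In MDAH cells the signals of SHH and RFX8 differed by -2.50 and -2.0 on the log2 scale, less than their log2 bounds of 2.71 and 2.28. Among the silenced arrays all 3 genes entered the comparison only through those of sh-SFPQ#2, where they were high, so that their bounds are a description with no test. They were among the lower genes that passed through that same filter, so that their calls are no support either, and under other settings these calls were often lost. Averaging all probes of the gene brought RFX8 to a difference of -0.34 and ERBB4 to -1.07. Under other processing settings the difference of SHH was as small as -1.34.

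These 3 genes did not share 1 order of arrays. ERBB4 was at 1.14 and 0.88 on the MDAH control arrays and at -1.91 with sh-SFPQ#2, and in SKOV3 cells at 0.80 and -1.32 and at -2.20, so that it was lower than both controls with sh-SFPQ#2 as well. SHH was at -4.29 and -2.64 on the MDAH control arrays and at -0.91 with sh-SFPQ#2, and in SKOV3 cells, where neither control array was above background, at -1.28 with sh-SFPQ#2. RFX8 likewise was highest with sh-SFPQ#2 in both lines, at -1.51 and -1.65, against -4.03 and -4.17 on the MDAH control arrays and 2 SKOV3 control arrays not above background.

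The highest genes with sh-SFPQ#3 fell into those that rose from the control level and those that had been lower with sh-SFPQ#2. AVP, which encodes the hormone vasopressin, was at -0.97 and -1.42 on the MDAH control arrays and at -1.30 with sh-SFPQ#2, and at 1.85 with sh-SFPQ#3. In SKOV3 cells it was at -1.88 and -1.85, -1.91 and 1.21. The array of sh-SFPQ#3 stood alone in each line, and the difference between the shRNAs was 3.14 ± 0.17 (SE of the fit), or 8.81-fold (adjusted p = 0.00133). HOXA10, a homeobox transcription factor of the female reproductive tract, had levels of 1.23 and 0.69, 0.79 and 3.75 in MDAH cells and of 0.55 and 0.34, 0.33 and 2.65 in SKOV3 cells, a difference of 2.64 ± 0.23 (adjusted p = 0.0031). A second probe of HOXA10 gave 1.01 in MDAH and 0.09 in SKOV3 cells, where its level with sh-SFPQ#3, -0.92, was close to the controls at -0.99 and -1.0, so that the probes did not give the same pattern in SKOV3 cells. EMILIN1, a glycoprotein of elastic fibres, was at 1.75 and 1.39, 1.52 and 3.92 in MDAH and at 1.12 and 1.06, 1.03 and 3.58 in SKOV3 cells, a difference of 2.47 ± 0.16 (adjusted p = 0.00133). GLTPD2, the forkhead factor FOXB1 and the protease inhibitor SPINK7 had the same order, with differences of 2.0, 1.87 and 1.82. EVX2, a homeobox gene beside the HOXD cluster, was well above background with sh-SFPQ#3 only, in both lines, and was at least 7.25-fold higher than with sh-SFPQ#2. This bound is for the average of the lines. Under other processing settings the average log2 difference of EVX2 was as low as 1.62, less than its log2 bound of 2.86. EVX2 entered the comparison only through the sh-SFPQ#3 arrays, and the bound is a description with no test.

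HLA-F-AS1, an antisense RNA of the HLA region, showed the other order. Its level was 5.96 and 5.93 on the MDAH control arrays, 4.14 with sh-SFPQ#2 and 6.40 with sh-SFPQ#3, and in SKOV3 cells 6.03 and 5.98, 3.77 and 5.69. Here the array of sh-SFPQ#2 stood apart below the others in both lines, with a difference of 2.09 ± 0.14 (adjusted p = 0.00146). The pseudogenes ACTG1P4 and NACA4P ran the same way, with differences of 1.82 and 2.02, and their probes may also read the parent genes. SNAR-F, one of several near-identical small RNAs, rose from 4.94 to 7.39 in MDAH cells, against 4.73 and 5.05 on the control arrays, and went from 7.69 to 8.74 in SKOV3 cells, against 8.75 and 8.87. FLYWCH2 was not well above background with sh-SFPQ#2 in either line and was at least 3.54-fold higher with sh-SFPQ#3, where it was at control level. MED29, a subunit of the Mediator complex, was at least 3.27-fold higher by the same bound. These bounds are for the average of the lines. In MDAH cells the log2 difference of MED29 was 1.47, less than its log2 bound of 1.71. Under other processing settings the average log2 difference was as low as 0.75 for FLYWCH2 and 0.78 for MED29. Both had to be above background with sh-SFPQ#3 to be compared, and their bounds too are a description with no test.

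**Figure D2:**
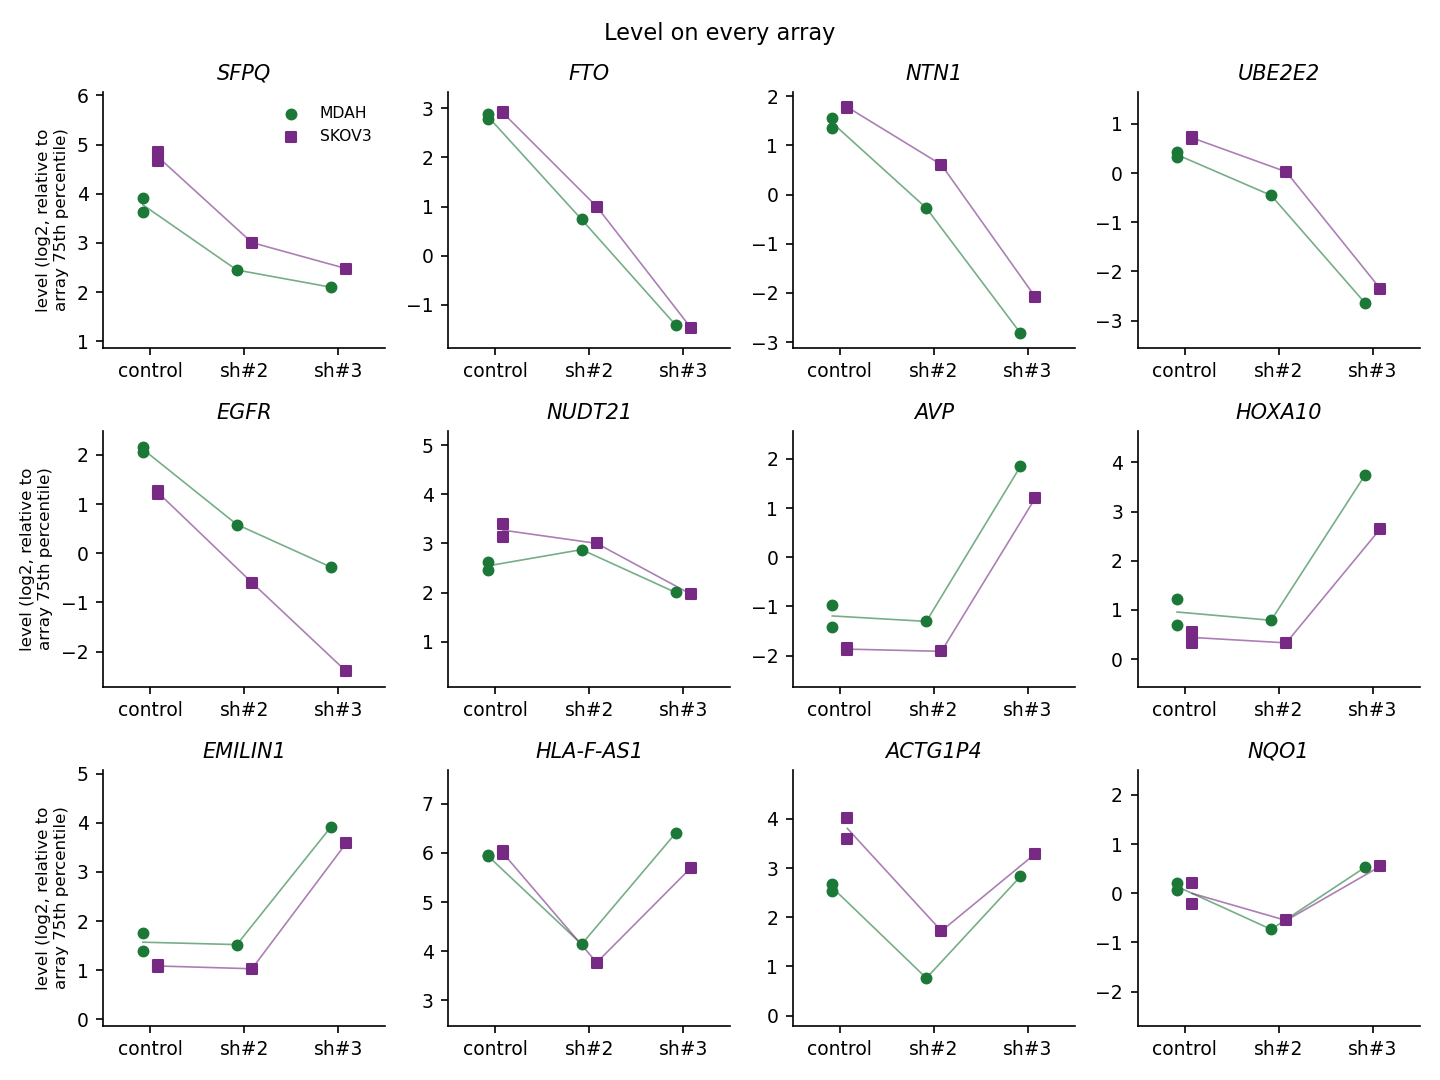
Level of 12 genes (y axis, log2 signal minus the array's 75th percentile) on the 2 control arrays, the sh-SFPQ#2 array and the sh-SFPQ#3 array of MDAH (circles) and SKOV3 cells (squares), with lines through the mean of the controls. FTO, NTN1, UBE2E2 and EGFR fall stepwise, AVP, HOXA10 and EMILIN1 stand at control level with sh-SFPQ#2 and above it with sh-SFPQ#3, and HLA-F-AS1 and ACTG1P4 are low with sh-SFPQ#2 only.

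The same orders were counted over all genes that passed. The test fixes that sh-SFPQ#3 lies below sh-SFPQ#2 for the lower genes and not on which side of the controls sh-SFPQ#2 lies. Both shRNAs are set against the same control arrays, and a high value on the sh-SFPQ#2 arrays favours a call. Choosing genes by the order of the shRNAs also favours those with sh-SFPQ#2 and sh-SFPQ#3 far apart or on opposite sides of the controls, so that the shares below are a description and the share of all genes beside them is no test. Of the 496 lower genes, 295 (59.5%) were below the control mean with sh-SFPQ#2 in both lines, against 23.8% of all genes tested. Their medians were -0.34 with sh-SFPQ#2 and -1.38 with sh-SFPQ#3 in MDAH cells and -0.33 and -1.32 in SKOV3 cells. SFPQ stood at -1.33 and -1.68 in MDAH and at -1.74 and -2.27 in SKOV3 cells on that scale. In both lines and with both shRNAs, 85 of the 496 (17.1%) were at least 2-fold below the controls, against 0.85% of all genes tested. At control level with sh-SFPQ#2 (within 0.5) and at least 2-fold lower with sh-SFPQ#3 in both lines were 47 genes (9.48%, against 0.395% of all genes tested), among them the host gene of small nucleolar RNAs SNHG10, the sialyltransferase ST3GAL1, the histone gene H4C9 and ASS1, which makes argininosuccinate. ST3GAL1 was -0.22 and 0.00 from the controls with sh-SFPQ#2 and -2.17 and -1.63 with sh-SFPQ#3, in MDAH and SKOV3 cells.

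Of the 217 higher genes, 119 (54.8%) were below the control mean with sh-SFPQ#2 in both lines, against 23.8% of all genes tested, and 170 (78.3%) above it with sh-SFPQ#3, against 33.7%. In both lines, 75 genes (34.6%) were below the control mean with sh-SFPQ#2 and above it with sh-SFPQ#3, against 2.81% of all genes tested, and 70 of the 496 lower genes (14.1%) showed the reverse, against 2.92% of all genes. Both classes need the shRNAs in the order by which the genes were chosen. The medians were -0.27 and 0.71 in MDAH cells and -0.17 and 0.65 in SKOV3 cells. At control level with sh-SFPQ#2 and at least 2-fold above it with sh-SFPQ#3 were 18 genes (8.29%, against 0.172% of all genes), among them AVP, HOXA10 and EMILIN1. The reverse, at control level with sh-SFPQ#3 and at least 2-fold below it with sh-SFPQ#2, was found for 12 genes (5.53%, against 0.0895% of all genes), among them MRPS16, a protein of the mitochondrial ribosome, the glucose transporter SLC2A6 and ELMO2. MRPS16 was at 6.60 and 6.60 on the MDAH control arrays, 5.37 with sh-SFPQ#2 and 6.64 with sh-SFPQ#3, and at 6.88 and 6.61, 5.52 and 6.92 in SKOV3 cells. Of the 496 lower genes, 4 were at least 2-fold above the controls with sh-SFPQ#2 and at control level with sh-SFPQ#3 (0.806%, against 0.0373% of all genes), among them UTS2R, the receptor of urotensin, at 4.52 and 4.04, 6.61 and 4.37 in MDAH cells and at 3.96 and 3.85, 6.26 and 4.25 in SKOV3 cells.

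**Figure D3:**
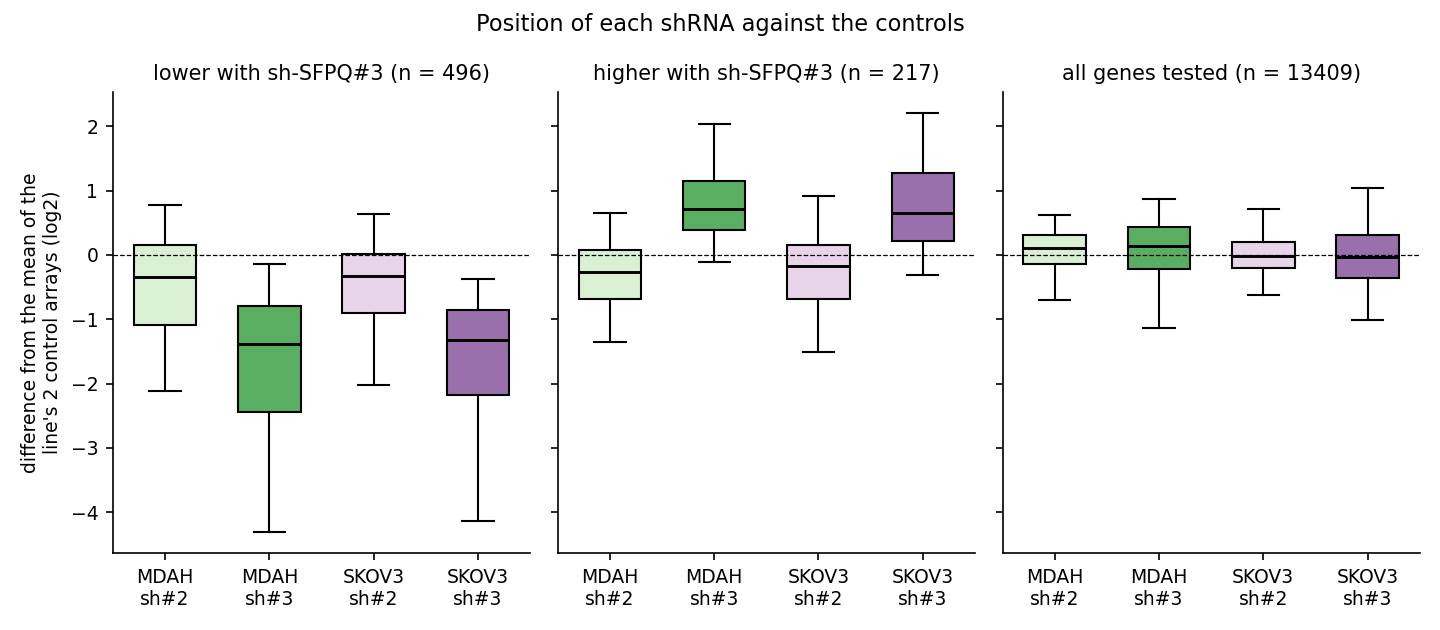
Difference of each silenced array from the mean of the 2 control arrays of its line (y axis, log2) for the 496 genes lower, the 217 genes higher and all 13409 genes tested, with boxes from the lower to the upper quartile, the median as a line and whiskers to the 5th and 95th percentiles. The medians of the lower genes are -0.34 and -0.33 with sh-SFPQ#2 and -1.38 and -1.32 with sh-SFPQ#3, and those of the higher genes are -0.27 and -0.17 against 0.71 and 0.65.

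Genes known to be very long were counted among the lower genes. A list of 127 such genes was written from general knowledge and left out genes already seen among the lowest. Only 49 of them were bright enough to be tested. Of these 49, 13 (26.5%) were lower and 1 was higher with sh-SFPQ#3, against 3.7% and 1.62% of all genes. Their median difference was -0.50 (MDAH -0.54, SKOV3 -0.37) and between -0.65 and -0.38 under the other scalings, and 29 members were lower in both lines against 4 that were higher. The median distance of the members from the controls was -0.35 in MDAH and -0.30 in SKOV3 cells with sh-SFPQ#2, and -0.67 and -0.75 with sh-SFPQ#3. NBEA, a scaffold protein of vesicle traffic, was at 1.74 and 1.39 on the MDAH control arrays, -0.13 with sh-SFPQ#2 and -1.69 with sh-SFPQ#3, and at 0.70 and 0.64, -0.74 and -2.07 in SKOV3 cells. RABGAP1L, a regulator of Rab GTPases, was lower by 1.52 and 1.61 on the log2 scale in the same lines (average -1.57 ± 0.19, adjusted p = 0.00796). EXOC4, a subunit of the exocyst, was the exception, with a difference of 0.72 ± 0.14 (adjusted p = 0.0341). The list was made after results of these arrays were known, and it was not tested as a set.

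Of 12 tested ERBB receptors and EGF-like ligands, 3 were lower with sh-SFPQ#3, against 3.7% of all genes: ERBB4, EGFR and the ligand NRG2. ERBB4 entered only through the sh-SFPQ#2 arrays, where it was higher, so that its call is no support and only the bound above can be given. EGFR was at 2.17 and 2.06 on the MDAH control arrays, 0.58 with sh-SFPQ#2 and -0.28 with sh-SFPQ#3, and at 1.26 and 1.21, -0.60 and -2.40 in SKOV3 cells, a difference of -1.33 ± 0.22 (adjusted p = 0.0209). Both EGFR and NRG2 fell stepwise in both lines. The median over the list was -0.08, with 5 members lower and 1 higher in both lines.

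The paraspeckle list held PSPC1 and NUDT21 as its 2 lower members among 20 tested, against 3.7% of all genes, and its median was 0.02. PSPC1, a partner of SFPQ, was above the controls with sh-SFPQ#2, at 1.91 against 0.96 and 0.99 in MDAH and at 2.17 against 1.52 and 1.55 in SKOV3 cells, and at 1.42 and 1.37 with sh-SFPQ#3 (difference -0.65 ± 0.14, adjusted p = 0.0453). Its call held under 9 of 20 other settings. NUDT21, a cleavage factor that sets poly(A) sites, differed by -0.95 ± 0.15 (adjusted p = 0.0188) and passed under 11 of them. NONO differed by -0.17 ± 0.15 (adjusted p = 0.569) and MALAT1 by 0.24 ± 0.17 (adjusted p = 0.465), neither passing the test. The brightest probe of NEAT1 gave -0.11 in MDAH and 0.36 in SKOV3 cells (adjusted p = 0.733), whereas 3 further probes gave 0.98 and 0.95, 0.44 and 0.74, and 0.35 and 0.88, so that the probes of this RNA did not give 1 value.

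In the splicing lists, 0 of 22 SR splicing factors and 0 of 52 members of the core spliceosome passed in limma, with 3 of each at an unadjusted p under 0.05, and their medians were -0.02 and -0.07. The splicing factor SRSF2 differed by 0.48 in MDAH and -0.17 in SKOV3 cells (adjusted p = 0.74). CASP9, CASP8 and BCL2L1 have transcripts in pro- and anti-apoptotic forms, and which of these forms the probes read was not looked at. Their average differences were 0.31, 0.31 and -0.42, with adjusted p of 0.3, 0.271 and 0.172 in limma. In the apoptosis lists, BCL2, an inhibitor of apoptosis, was lower by 0.95 on the log2 scale in SKOV3 cells. On the MDAH array of sh-SFPQ#3 it was not well above background, so that no exact difference can be given there, and its average of -0.97 (adjusted p = 0.0128) was -0.32 with normexp background correction and then did not pass. DIABLO, which releases caspases from their inhibitors, was lower by 0.63 and 0.67 (adjusted p = 0.0388), a call that held under 9 of 20 other settings. BCL2, through that filter, and DIABLO were the only calls among 18 members of the BCL2 family (5.56%) and 20 caspases and activators (5.0%), against 3.7% of all genes.

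Components of the RNA interference machinery had 2 higher genes of 14 tested, against 1.62% of all genes. DICER1, the enzyme that cuts hairpin precursors, rose from 1.70 to 2.89 in MDAH and from 2.56 to 3.19 in SKOV3 cells (difference 0.91 ± 0.19, adjusted p = 0.0464), and TNRC6C, a partner of Argonaute, from 1.28 to 2.23 and from 0.80 to 1.5 (0.83 ± 0.14, adjusted p = 0.0245). The call of DICER1 held under 7 of 20 other settings and that of TNRC6C under 10, with a lowest value of 0.25 when all its probes were averaged. With sh-SFPQ#2, DICER1 was at the level of the controls and TNRC6C below it. Of 19 genes of the NRF2 pathway, NQO1 and ME1 were higher (10.5%, against 1.62% of all genes), by 1.18 ± 0.17 (adjusted p = 0.0149) and 0.83 ± 0.15 (adjusted p = 0.0302), and both had been below the controls with sh-SFPQ#2 in both lines. Each passed under 11 of 20 other settings. Among 18 genes of platinum transport and metallothioneins, the copper transporter SLC31A2 was lower, at 0.90 with sh-SFPQ#2 and -0.43 with sh-SFPQ#3 in MDAH and at 0.67 and -0.55 in SKOV3 cells (-1.28 ± 0.18, adjusted p = 0.0136), the 1 call of that list (5.56%, against 3.7%). The ubiquitin list had 3 lower genes of 39 E1 and E2 enzymes, UBE2E2, UBE2J1 and UBE2Q1 (7.69%, against 3.7% of all genes), and a median of -0.15. In both lines 23 of its members were lower and 8 higher, while of all 13409 genes 4200 were lower and 4150 higher.

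Among 18 histone genes, H1-3, H2AC8 and H3C4 were lower with sh-SFPQ#3 (16.7%, against 3.7% of all genes). H2AC8 was at 3.06 and 3.02 on the MDAH control arrays, 2.83 with sh-SFPQ#2 and 1.84 with sh-SFPQ#3, and at 3.05 and 3.03, 3.0 and 1.56 in SKOV3 cells (-1.22 ± 0.15, adjusted p = 0.0088). The list had a median of -0.12 in MDAH and -0.86 in SKOV3 cells, negative in both under every scaling tried. Histone genes are near-identical to each other and their probes may read several of them. The 35 genes of DNA replication and 33 of mitosis had 0 calls each, with 2 and 1 at an unadjusted p under 0.05 in limma, and medians of opposite sign in the lines, 0.21 in MDAH and -0.17 in SKOV3 cells for DNA replication and 0.11 and -0.09 for mitosis.

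Ribosomal protein genes had 0 calls of 72 in limma, with 14 at an unadjusted p under 0.05, and a median of 0.43 in MDAH and 0.03 in SKOV3 cells, and 43 of them were higher in both lines against 3 that were lower. After quantile normalization the median was -0.01, with 22 higher and 30 lower in both lines, so that the direction of this list rests on the scaling. RPL5 had 0.98 and 0.42 (adjusted p = 0.0619). Interferon-stimulated genes had 0 calls of 40, with 4 at an unadjusted p under 0.05 in limma, and a median of -0.12. IFI6 among them was at 2.64 and 4.37 on the MDAH control arrays and at 0.59 and 3.69 on those of SKOV3 cells, a wider spread than that between the shRNAs. The genes of the unfolded protein response had 0 calls of 27, with 7 at an unadjusted p under 0.05 in limma, and medians of opposite sign, -0.52 in MDAH and 0.20 in SKOV3 cells, with DDIT3 at -1.72 and -0.02 (adjusted p = 0.285). Of 17 heat shock proteins, the co-chaperone DNAJB4 was higher, by 0.69 ± 0.15 (adjusted p = 0.0471), or 5.88% of the list against 1.62% of all genes. Between 0 and 6 members at an unadjusted p under 0.05 in limma, and 0 calls, were found for 14 sensors of double-stranded RNA, 25 genes of NF-kappaB and inflammatory cytokines, 27 of cholesterol synthesis, 19 of epithelial to mesenchymal transition, 31 collagens, laminins and integrins, 26 immediate early genes, 15 clock genes, 69 mitochondrial ribosomal proteins, 8 genes the study names and 8 ovarian markers, and their medians lay between -0.19 and 0.18. All lists were written with earlier results of these arrays known, and the counts are given as a description.

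**Figure D4:**
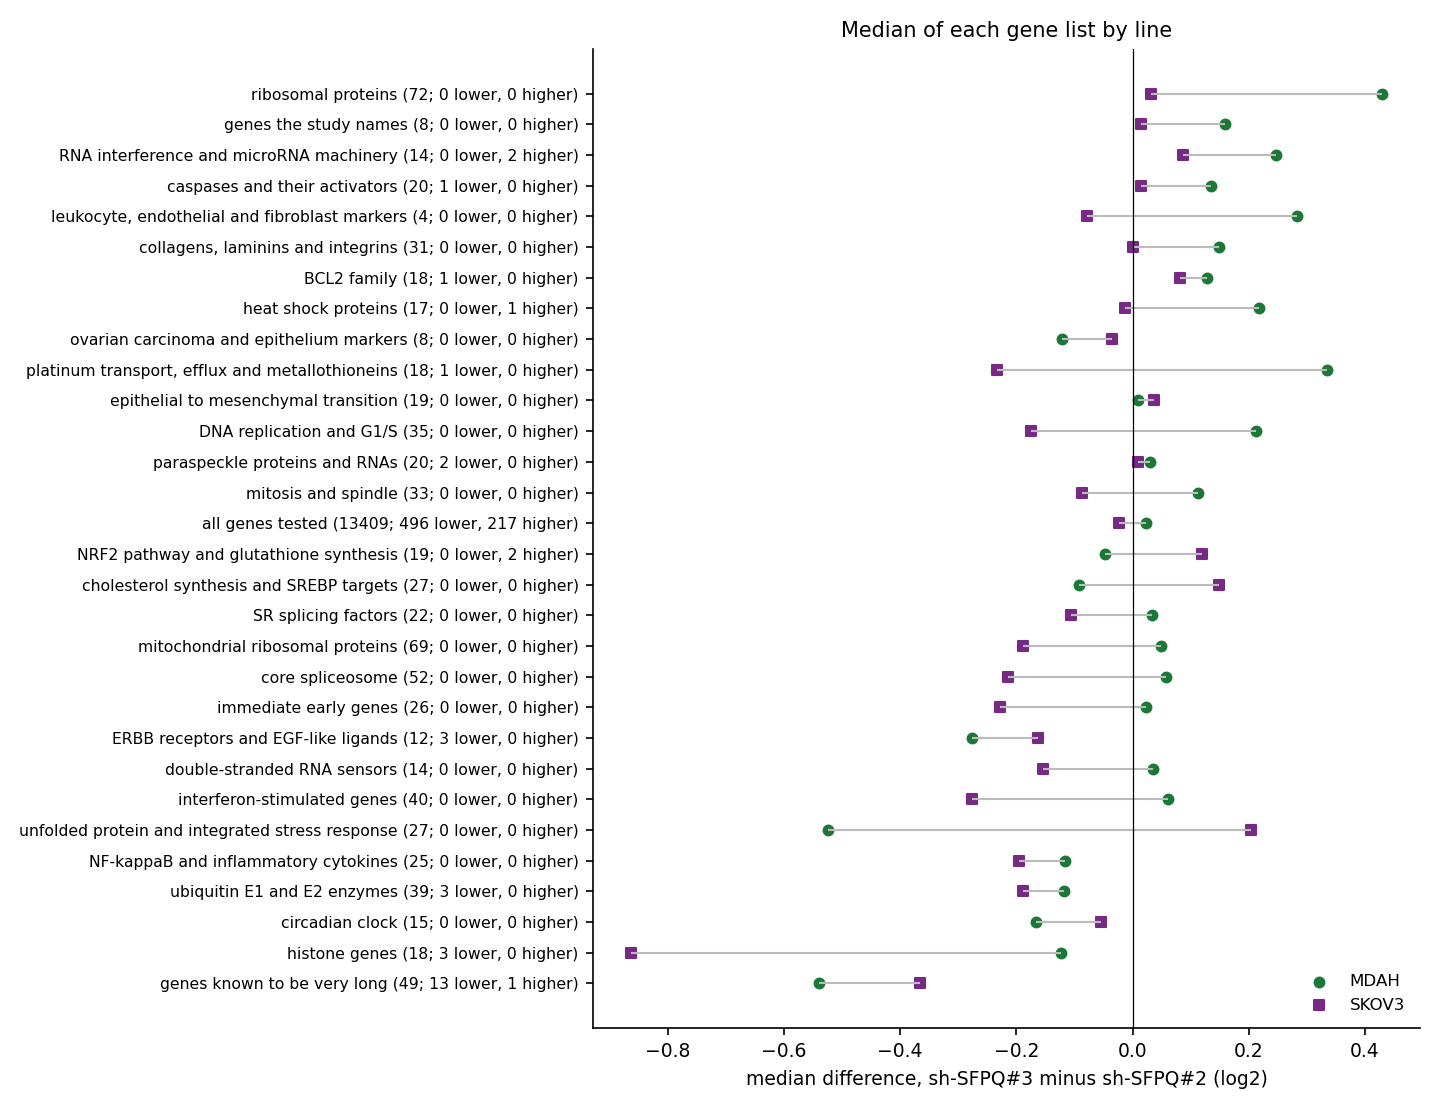
Median difference between sh-SFPQ#3 and sh-SFPQ#2 (x axis, log2) of the gene lists described here in MDAH (circles) and SKOV3 cells (squares), with the number of genes tested and the numbers lower and higher at an adjusted p under 0.05 in parentheses. Genes known to be very long lie lowest, at -0.54 and -0.37, the histone genes are far apart at -0.12 and -0.86, and all genes tested lie at 0.02 and -0.02.

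Some gene families, taken by symbol after the values had been seen, are given as counts. Of 412 zinc finger genes with a ZNF symbol, 15 (3.64%) were higher and 9 (2.18%) lower with sh-SFPQ#3, against 1.62% and 3.7% of all genes. One of the higher ones, ZNF714, was at 3.14 and 3.11 on the MDAH control arrays, 1.89 with sh-SFPQ#2 and 3.88 with sh-SFPQ#3. Long intergenic RNAs had 6 higher (5.22%) and 0 lower genes of 115, against 1.62% and 3.7% of all genes. Of 18 HOX genes tested, HOXA10, by its brightest probe, and HOXA6 were higher (11.1%, against 1.62% of all genes), the latter by 0.92 in both lines (adjusted p = 0.0145), and 0 were lower. In other families, as over all genes, more members were lower than higher. Of 243 solute carriers, 14 (5.76%) were lower, against 3.7% of all genes, and 4 (1.65%) higher, near the 1.62% of all genes. Of 228 small nucleolar and Cajal body RNAs, 10 (4.39%) were lower, near the 3.7% of all genes. Only 2 of them (0.877%) were higher, against 1.62%. Of 15 keratins 2 (13.3%) were lower and 0 higher, against 3.7% and 1.62% of all genes.

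A test of the difference between the lines themselves passed for 0 of 13409 genes (0%) in limma, with 1171 at an unadjusted p under 0.05 and a smallest adjusted p of 0.0592. That smallest value belonged to FKBP10, a chaperone of collagen folding, at 4.82 with sh-SFPQ#2 and 4.94 with sh-SFPQ#3 in MDAH cells and at -0.85 and -4.89 in SKOV3 cells. In SKOV3 cells, FKBP10, NTF4 and SALL4 were above background on the array of sh-SFPQ#2 only, and CCDC110 and SPATA17 on that of sh-SFPQ#3 only. CCDC160 was not well above background on the MDAH array of sh-SFPQ#3, so that no exact difference can be given there, and differed by 1.38 in SKOV3 cells, where its controls were at -5.21 and -1.88. Without 1 of the 2 control arrays of SKOV3 cells, 121 genes passed this test, so that its count rests on the spread between those arrays.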

How the data were processed

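Gene expression was measured on 8 single-colour Agilent arrays. Per the file headers, the authors' scanner software, Feature Extraction 11.5.1.1 (10.7.3.1 in the submitters' processing notes), subtracted the background and deposited a linear intensity per spot, not normalized between arrays. The authors also deposited a log2 table, which correlated with quantile-normalized, probe-centred scanner values at 0.999997 or more (column medians -0.032 to 0.013), and which served as an alternative.

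Control spots and 209 to 310 outlier spots per array were excluded. Replicate spots of 1 probe were averaged as log2, and every array was scaled to its own 75th percentile. Through RefSeq accessions, without versions, 28174 of 50599 probes (55.7%) were named, giving 20503 genes, with 2 list symbols unnamed. The files' build is hg19 and the naming table's GRCh38.p14, so that gene lengths and coordinates were not used. The brightest probe stood for a gene. Tested were 13409 genes whose signal exceeded background clearly on both arrays of 1 or the other shRNA, 5 being left out for a missing value. Well above background covered 47.7% to 57.0% of probes per array. Precision is limited by the number of arrays.

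In R 4.3.3 with limma 3.58.1, a block per line and a control or silenced term per line left 3 residual degrees of freedom, from both control pairs and from the agreement of the lines. The prior added 3.81. The test of the line difference had 2. Adjusted p-values are Benjamini-Hochberg over all genes, with a threshold of 0.05. The script was tested on simulated data. Pairing is by cell line, from the labels.

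Members and lists were chosen with earlier results of these data known. Genes named are SFPQ, the 10 lowest and 10 highest that passed, ran the same way in both lines and were above background on all 4 silenced arrays, the 3 largest bounds and 3 largest line differences on each side, 2 members per list, 8 genes around SFPQ and splicing, and UBE2E2. Others were chosen after their values were seen. The bound of a gene not above background with 1 shRNA uses, per array, the higher of its own signal and the lowest signal above background. It is given for the average of the lines. The slide could not be a block, since there was 1 slide and 1 scan. Alternatives were other scalings, filters, probe choices, designs and priors, and leaving out each array. Among the settings counted per gene, those without a silenced array rest on the other line alone, and leaving out either silenced array of a line gives the same fit. One list is not reported here.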

Additional observations from a re-analysis of the deposited data

Results flagged for a closer look

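Probes that could not be given a gene name stayed outside the comparison, and more of them differed between the shRNAs than between the control arrays. The filter let a probe enter through the shRNA where it was high and did not look at the controls, so that the count of the controls is no test. Among named genes the count fell from 264 to 168 when all 4 silenced arrays had to be above background. For unnamed probes that count was not made. Of 5439 such probes past the filter, 159 (2.92%) differed by at least 2-fold between sh-SFPQ#3 and sh-SFPQ#2 in the same direction in both lines, 57 lower and 102 higher, while the 2 control arrays of each line gave 5 probes (0.0919%) by the same rule. Among named genes the share was 1.97%, with 197 lower and 67 higher. The difference between named and unnamed probes was not tested.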

How the results depend on the processing

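The count of 713 genes stayed within 1.5 times under the other scalings, the probe choices and the priors, and fell to 128 with no filter on dim probes, 161 on the 4 silenced arrays alone and 0 without the replicate block for cell line (limma, 440 at an unadjusted p under 0.05). Leaving out 1 array gave 221 to 664. The lower end of that range comes from a fit without a silenced array, which rests on 1 array against 1 of the other line and is no test. Without 1 control array the count was 267 in MDAH and 664 in SKOV3 cells. SFPQ passed under no setting. The count for the line difference, 0, was 6 with median centring, 8 with quantile normalization, 8 in the authors' table, and 0 to 121 with 1 control array left out; without a silenced array it cannot be estimated. The 264 genes at least 2-fold apart were 106 with normexp, 495 with no filter and 168 when all 4 silenced arrays had to be above background. The share of lower genes below the controls with sh-SFPQ#2, 59.5%, was 40.5% with median centring (13.0% of all genes), 85.1% with no filter and 53.9% with all 4 arrays above background. Of the 713 genes, 647 were also called after quantile normalization and 645 in the authors' table. The cause of these changes was not tested.

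Leaving out a silenced array of 1 line leaves only the difference of the other line. The direction therefore turned for genes whose lines differed in sign, none of which had passed, and their ranges run between the values of the single lines. Their ranges were -1.07 to 2.63 for CCDC110, -0.92 to 2.73 for SPATA17, -2.24 to 1.38 for CCDC160, -4.26 to 0.48 for NTF4, -4.31 to 0.40 for SALL4, -4.04 to 0.11 for FKBP10, -0.40 to 0.052 for NONO, -0.11 to 0.36 for NEAT1, -0.17 to 0.48 for SRSF2, -2.16 to 0.060 for IFI6, -0.093 to 1.30 for INSIG1, -1.44 to 0.73 for CDH1, -0.37 to 0.66 for EPCAM and -0.64 to 0.072 for CD68. Normexp also turned SPATA17 (-0.053) and CCDC160 (0.15), and median centring NEAT1 (-0.027) and EPCAM (-0.0014). The highest value of NEAT1 under other processing settings was 0.57, above that of either single line.

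With 2 arrays per shRNA, dim genes are limited by signal over background, and of 197 further probes of 161 called genes, 153 had the direction of the gene in the average of the lines and 131 in both lines.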
